A study of Mus musculus with 6 samples.

Results

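The genes described here are the 10 genes of the mouse MHC class II pathway that were selected by symbol, namely the classical chain genes H2-Aa, H2-Ab1 and H2-Eb1, the DM genes H2-DMa, H2-DMb1 and H2-DMb2, the DO genes H2-Oa and H2-Ob, the invariant chain gene Cd74 and the transactivator gene Ciita. All 10 were found among the 18437 genes of the expression table. The samples were tongue tumours that grew in C57BL/6 mice after injection of 4MOSC1 cells, a line of murine oral squamous carcinoma. In 3 tumours the injected cells overexpressed LIGHT, a cytokine of the TNF family that is the product of Tnfsf14, and in 3 tumours they were 4MOSC1 control cells. The labels give no age, sex or time after injection, do not say whether the line is 1 clone or how LIGHT was expressed, and do not link libraries to animals. The p-values therefore measure only the spread between these samples, which may be technical. Levels are given in TPM, a share of the transcripts of 1 library that is corrected for gene length, from bulk RNA depleted of ribosomal RNA. TPM keeps no sequencing depth, so no counting interval can be given.

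MHC class II molecules are pairs of an alpha and a beta chain that present peptides from the endosomal route to CD4 T cells, and dendritic cells, macrophages and B cells are their main carriers, while many other cells can be induced to make them by interferon gamma. The new chains travel with the invariant chain, whose remnant in the groove is exchanged for a peptide by DM, and DO restrains DM. CIITA does not bind DNA itself: it joins the factors RFX and NF-Y, which sit on the X box and Y box of class II promoters, and its own level sets how strongly these genes are transcribed.

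The DM, DO and classical chain genes lie together on chromosome 17 (GRCm38.p6), from H2-Oa, which starts at position 34092379, to H2-Eb1, which ends at 34316674. RefSeq promoter windows (GRCm38.p6, 250 bases before to 50 after an annotated start) matched 7 of the 10 genes, H2-Oa, H2-DMa, H2-DMb2, H2-DMb1, H2-Ob, H2-Aa and H2-Eb1. The stretches below are shown because the X and Y boxes are the shared promoter element through which CIITA acts. They run 5′ to 3′ along the gene's strand, from 50 bases before to 6 bases after the Y box, and the capitals mark the Y box letters TGATTGG and, where present upstream of it, the X box core letters AACNNATG.
H2-Eb1, chr17:34305756-34305818, plus strand: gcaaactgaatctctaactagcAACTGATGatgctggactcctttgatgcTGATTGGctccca
H2-DMb1, chr17:34153078-34153140, plus strand: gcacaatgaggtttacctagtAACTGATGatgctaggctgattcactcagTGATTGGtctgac
H2-DMb2, chr17:34145107-34145169, plus strand: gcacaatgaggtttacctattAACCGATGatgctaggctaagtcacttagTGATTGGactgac
H2-Ob, chr17:34238796-34238858, plus strand: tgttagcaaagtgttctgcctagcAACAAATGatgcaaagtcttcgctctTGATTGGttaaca
H2-Aa, chr17:34287861-34287923, minus strand: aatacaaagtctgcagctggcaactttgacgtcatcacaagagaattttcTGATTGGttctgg
H2-Oa, chr17:34092284-34092346, plus strand: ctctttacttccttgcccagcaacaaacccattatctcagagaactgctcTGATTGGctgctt

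The Y box letters were present in 6 of the 7 genes, and the pair of an X box core 10 to 40 bases upstream of a Y box on the same strand in 4, H2-Eb1, H2-DMb1, H2-DMb2 and H2-Ob. The gap between both motifs was 20 bases in H2-Eb1, 21 in H2-DMb1 and H2-DMb2, and 18 in H2-Ob. Among all 32851 promoter windows, searched on both strands, 8.86% held the X box core letters, 7.82% the Y box letters, and 18 windows (0.0548%) the pair, one of them that of H2-Eb2. The letters were chosen after the windows of these genes had been read, so the count among the genes is a description. Only these exact letters were searched, so an X box or Y box spelled otherwise was not marked. The windows of H2-Aa and H2-Oa held no X box core letters, and both windows of H2-DMa held neither motif. Nothing is drawn from this about the factors or about whether such boxes are absent.

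**Figure D1:**
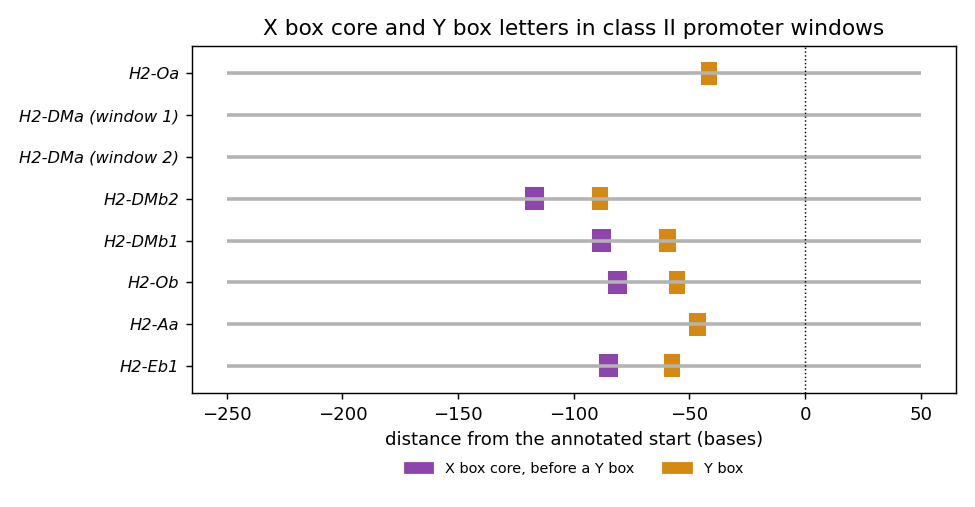
Position of the X box core and Y box letters in the promoter windows, as distance in bases from the annotated start (dotted line), with 1 line per window. The Y box letters begin between positions -92 and -45 from the start, and 4 genes have the X box core letters before them.

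The 3 classical chain genes, whose products are the class II molecules themselves, all rose in LIGHT tumours, with group means 2.13 to 2.33-fold those of control tumours. H2-Aa, the alpha chain of I-A, had 1699, 1643 and 1268 TPM in the LIGHT tumours against 632, 755 and 780 TPM in the control tumours. H2-Ab1, its beta chain partner, had 1602, 1566 and 1221 TPM in the LIGHT tumours against 592, 731 and 692 TPM in the control tumours. For both genes the third LIGHT library was the lowest of its group and still lay above every control library. The mean of H2-Aa was 2.13-fold higher (log2 fold change 1.08, SE 0.14, limma adjusted p = 0.0028) and that of H2-Ab1 2.18-fold higher (log2 fold change 1.12, SE 0.13, limma adjusted p = 0.00225). Log2 fold changes are differences of mean log2(TPM + 1), LIGHT minus control, which understate the change of low genes. The 13167 genes that reached 1 TPM in 3 or more libraries were tested together with limma, and a gene was called higher or lower, and is said to have risen or fallen, at a Benjamini-Hochberg adjusted p under 0.05.

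H2-Eb1, the beta chain of I-E, had 521, 488 and 397 TPM in the LIGHT tumours against 180, 215 and 209 TPM in the control tumours, and rose 2.33-fold (log2 fold change 1.21, SE 0.12, limma adjusted p = 0.00147). Its alpha chain partner H2-Ea was listed at 0 in 5 of the 6 libraries and at 0.09 TPM in the first LIGHT library. C57BL/6 mice carry an H2-Ea allele that is not transcribed because its promoter region is deleted, so that I-E is not displayed on their cells. H2-Eb2, a further class II beta chain gene, stayed at 0.15 to 0.3 TPM in the LIGHT tumours and 0.07 to 0.14 TPM in the control tumours and was too low to be tested.

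**Figure D2:**
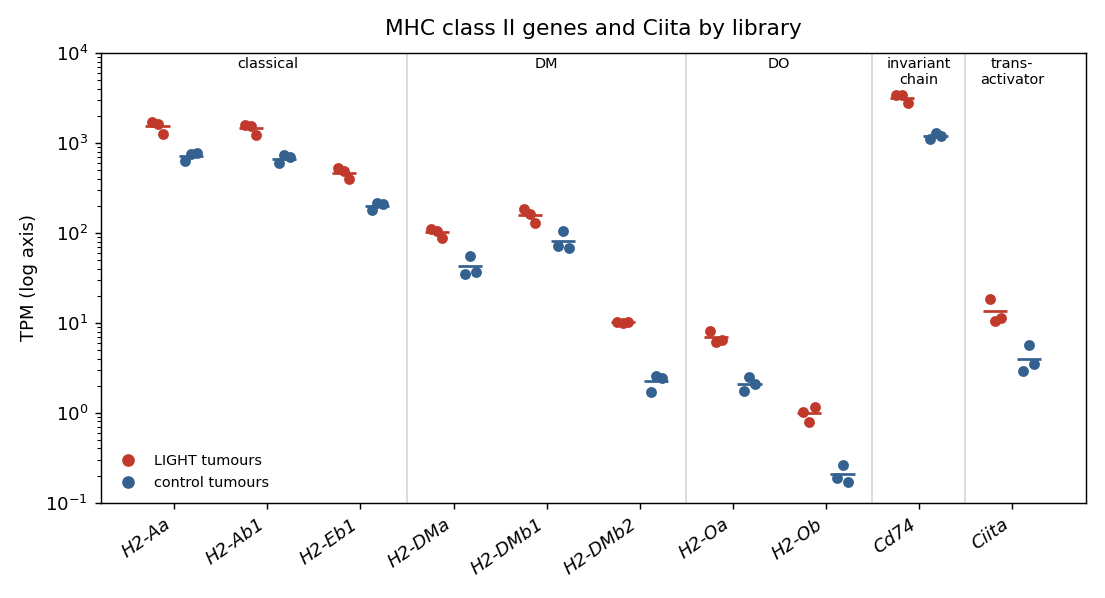
TPM of the 10 genes in each library on a log axis, with LIGHT tumours in red, control tumours in blue and a line at each group mean (n = 3 each). The LIGHT libraries of each gene lie above the control libraries, and the genes span from Cd74 at 1122 TPM or more to H2-Ob near or below 1 TPM.

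Cd74, on chromosome 18 (60803849 to 60812652), encodes the invariant chain and had the highest level of the 10 genes in every library. It had 3381, 3451 and 2754 TPM in the LIGHT tumours against 1122, 1300 and 1209 TPM in the control tumours. The mean rose 2.64-fold in LIGHT tumours (log2 fold change 1.40, SE 0.11, limma adjusted p = 0.000748). By mean TPM it was gene number 46 of the 18437 in LIGHT tumours and number 147 in control tumours.

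The DM genes, whose products form the peptide exchange factor, also rose. H2-DMa, its alpha chain, had 112, 105 and 88.7 TPM in the LIGHT tumours against 35.4, 55.7 and 36.5 TPM in the control tumours (log2 fold change 1.26, SE 0.18, limma adjusted p = 0.00412). H2-DMb1, a beta chain gene, had 187, 162 and 130 TPM in the LIGHT tumours against 71.6, 105 and 67.3 TPM in the control tumours (log2 fold change 0.98, SE 0.19, limma adjusted p = 0.0119). In both genes the second control library was the highest of its group, at 105 TPM for H2-DMb1 against 130 TPM in the lowest LIGHT library. H2-DMb1 was the only one of the 9 tested genes that lost its call in any of 17 refits. With the mean log2 level of 6 skeletal muscle genes as a covariate its limma adjusted p was 0.0557, and with that of 5 red blood cell genes it was 0.0701, at log2 fold changes of 1.13 and 0.92. The muscle genes summed to 3033 to 4802 TPM in the LIGHT tumours and 2042 to 3679.5 TPM in the control tumours, and the red blood cell genes to 119 to 2086 TPM in the LIGHT tumours and 70 to 453 TPM in the control tumours. Its log2 fold change of 0.98 also missed the minimum of 1 that was tried as an added limit. None of either marker list was called, and their part in the result was not tested.

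H2-DMb2, the second beta chain gene of DM, was low in all libraries and changed most of the tested genes of the group. It had 10.3, 9.9 and 10.2 TPM in the LIGHT tumours against 1.72, 2.56 and 2.42 TPM in the control tumours, so the LIGHT libraries were close together and well above the controls. The mean was 4.53-fold higher (log2 fold change 1.79, SE 0.13, limma adjusted p = 0.000536), the 45th largest rise among the 13167 genes tested. The transcripts of H2-DMb2 and H2-DMb1 are 94.4% identical over the aligned bases (GENCODE M21). Of the stretches of 50 bases in the H2-DMb2 transcript 26.8% occur without a mismatch in H2-DMb1 and 4.51% in transcripts of 164 other genes, and of those in the H2-DMb1 transcript 27.2% occur in H2-DMb2. Of the stretches of 100 bases 13.5% of those in H2-DMb2 and 13.7% of those in H2-DMb1 are shared, with the other gene of the pair alone. How reads from such stretches were assigned is not given in the sources used here, so the split between the pair, and for H2-DMb2 also from the other genes, is uncertain. None of the stretches of 50 bases in the other 8 genes' transcripts was shared with the transcript of another gene.

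By mean TPM the DO genes were the lowest of the 10 in LIGHT and in control tumours. In the control tumours H2-Oa, at a mean of 2.11 TPM, lay close to H2-DMb2, at 2.23 TPM. H2-Oa, the alpha chain of DO, had 8.18, 6.07 and 6.46 TPM in the LIGHT tumours against 1.75, 2.47 and 2.11 TPM in the control tumours and rose 3.27-fold (log2 fold change 1.34, SE 0.14, limma adjusted p = 0.00186). H2-Ob, the beta chain, had 1.02, 0.78 and 1.16 TPM in the LIGHT tumours against 0.19, 0.26 and 0.17 TPM in the control tumours. H2-Ob did not reach 1 TPM in 3 libraries and was therefore the only one of the 10 genes left untested. With no filter on low values its difference on the log2 scale was 0.72 (SE 0.08, limma adjusted p = 0.00573), a value compressed by the pseudocount of 1, while its mean was 4.77-fold higher.

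Ciita, the transactivator gene on chromosome 16 (10480014 to 10531064), had 18.6, 10.6 and 11.3 TPM in the LIGHT tumours against 2.89, 5.64 and 3.45 TPM in the control tumours. The first LIGHT library and the second control library were the highest of their groups, and the groups did not overlap. The mean was 3.37-fold higher (log2 fold change 1.53, SE 0.26, limma adjusted p = 0.00693), the 82nd largest rise of the tested genes. Its standard error was the largest of the 9 tested genes, with a 95% interval of the log2 fold change from 0.94 to 2.13.

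All 9 tested genes thus passed as higher and 0 as lower, in a comparison that called 17.7% of all tested genes higher and 5.41% lower. In all 10 genes the 3 LIGHT libraries lay above the 3 control libraries, which was so for 29.6% of the tested genes (11.6% had the LIGHT libraries all below). The median log2 fold change was 1.26 over the 9 genes and 0.09 over all tested genes. Quantile normalization moved the median of all tested genes to -0.04 and that of the 9 genes to 1.10. The split of all calls depended on the scaling, at 2325 higher and 712 lower as deposited, 1800 and 1731 after trimmed-mean factors, and 1399 and 1811 after quantile normalization. Tnfsf14 was at 25.3 ± 1.28 TPM in the LIGHT tumours and 0.66 ± 0.13 TPM in the control tumours (SD, n = 3 each), higher in the tumours labelled LIGHT.

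**Figure D3:**
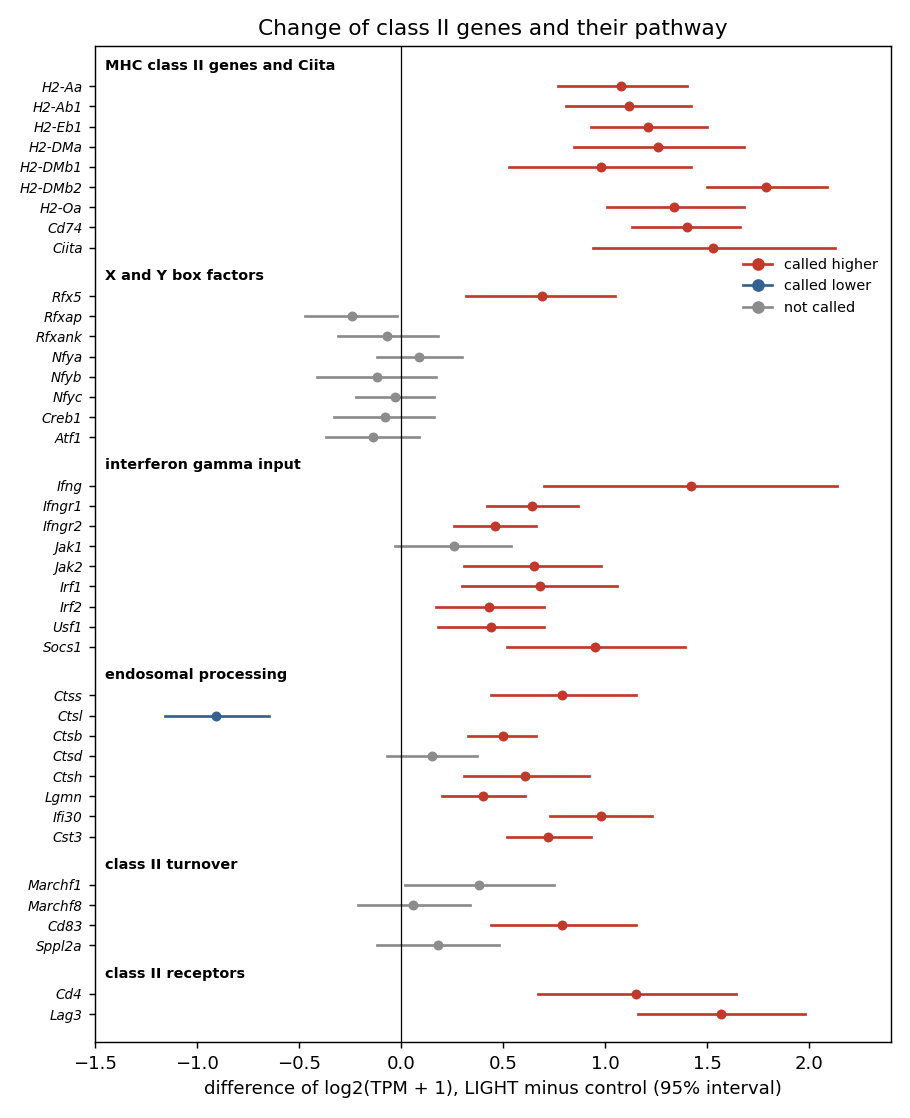
Difference of mean log2(TPM + 1), LIGHT minus control, with its 95% interval from limma, for the 9 tested class II genes and the tested genes of 5 pathway lists. Red marks genes called higher, blue the one gene called lower (Ctsl) and grey those not called. The class II genes lie between 0.98 and 1.79.

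Ratios of 2 genes within a library do not depend on how the library was scaled, so they set the levels of these genes against each other. For each of 16 ratios the 6 libraries were compared with an exact two-sided permutation test, in which the smallest possible p is 0.1, so no ratio could pass a threshold of 0.05. H2-Ab1 over H2-Aa was 0.943, 0.953 and 0.963 in the LIGHT tumours and 0.938, 0.968 and 0.887 in the control tumours. The groups overlapped, with a log2 difference of 0.03 (exact permutation p = 0.5, adjusted p = 0.533 over the 16 ratios). H2-DMa over H2-Aa overlapped too, at 0.0665 ± 0.0031 in LIGHT tumours and 0.0588 ± 0.0137 in control tumours (SD, n = 3 each, exact permutation p = 0.4).

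Invariant chain transcripts made up more, in relation to the alpha chain, in each LIGHT library than in any control library. Cd74 over H2-Aa was 1.99, 2.1 and 2.17 in the LIGHT tumours and 1.78, 1.72 and 1.55 in the control tumours, with no overlap (log2 difference 0.31, exact permutation p = 0.1, adjusted p = 0.2). H2-Eb1 over H2-Aa was 0.307, 0.297 and 0.313 in the LIGHT tumours and 0.284, 0.285 and 0.268 in the control tumours, a smaller shift, also without overlap (log2 difference 0.13, exact permutation p = 0.1, adjusted p = 0.2). Ciita over H2-Aa averaged 0.00875 ± 0.00225 in LIGHT tumours and 0.00549 ± 0.00172 in control tumours (SD, n = 3 each). There the second control library, at 0.00747, lay above the second LIGHT library, at 0.00642 (log2 difference 0.68, exact permutation p = 0.2, adjusted p = 0.291).

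Within DM the 2 beta chain genes lay on opposite sides relative to the alpha chain. H2-DMb1 over H2-DMa was 1.67, 1.54 and 1.47 in the LIGHT tumours and 2.02, 1.89 and 1.85 in the control tumours (log2 difference -0.30, exact permutation p = 0.1, adjusted p = 0.2). H2-DMb2 over H2-DMb1 was 0.0549, 0.0612 and 0.0781 in the LIGHT tumours and 0.024, 0.0243 and 0.036 in the control tumours (log2 difference 1.21, exact permutation p = 0.1, adjusted p = 0.2). H2-DMb2 over H2-DMa was 0.1 ± 0.0127 in LIGHT tumours and 0.0537 ± 0.0111 in control tumours (SD, n = 3 each, exact permutation p = 0.1, adjusted p = 0.2). None of these 3 ratios overlapped between the groups, and H2-DMb2 remained the minor beta chain transcript in all 6 libraries. All 3 depend on how reads shared by H2-DMb1 and H2-DMb2 were split, which is uncertain as stated above. H2-Ob over H2-Oa was 0.144 ± 0.0306 in LIGHT tumours and 0.0981 ± 0.0153 in control tumours (SD, n = 3 each, exact permutation p = 0.1, adjusted p = 0.2). The alpha chains of DO and DM kept overlapping ratios, with H2-Oa over H2-DMa at 0.068 ± 0.0088 in LIGHT tumours and 0.0506 ± 0.00682 in control tumours (SD, n = 3 each, exact permutation p = 0.2, adjusted p = 0.291). The ratio of H2-Ob to H2-Oa turns round with a pseudocount of 1 (log2 difference -0.63), because H2-Ob lies near 1 TPM.

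**Figure D4:**
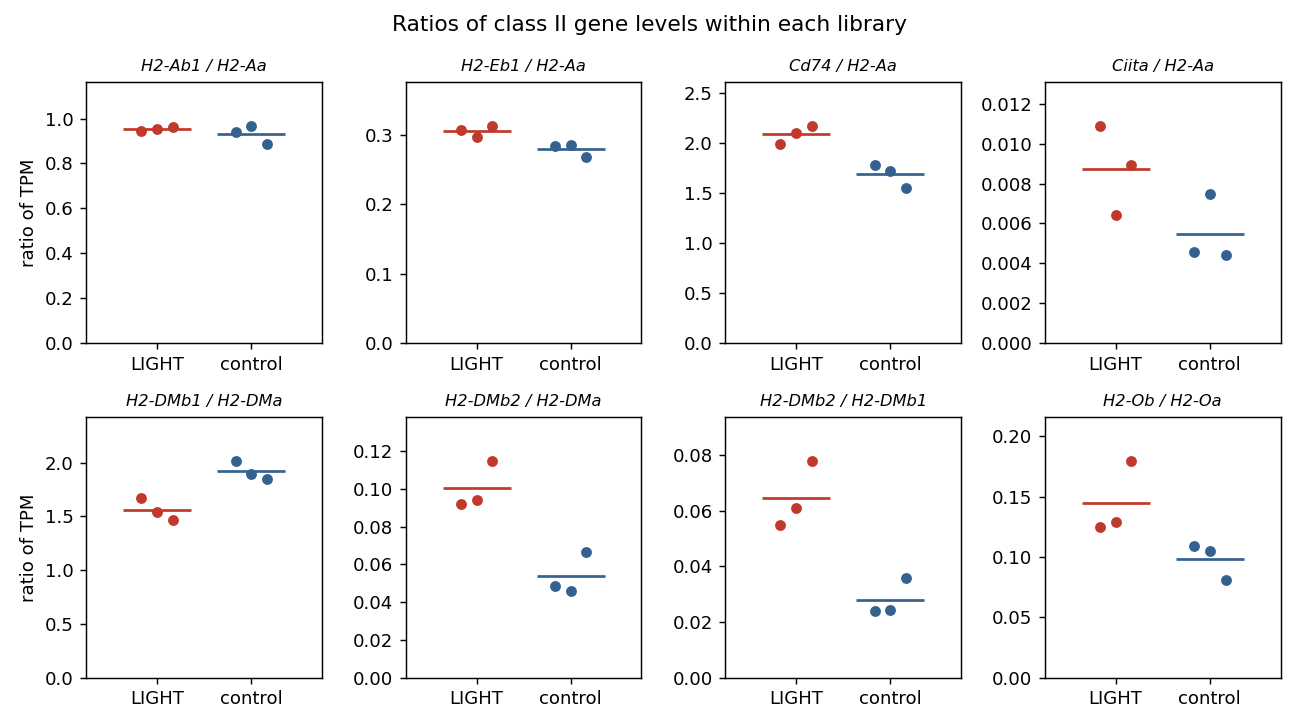
Ratios of TPM within each library, with LIGHT tumours in red, control tumours in blue and a line at each group mean (n = 3 each). H2-Ab1 over H2-Aa is alike in all libraries (0.887 to 0.968), while Cd74 over H2-Aa and H2-DMb2 over H2-DMb1 are higher and H2-DMb1 over H2-DMa lower in every LIGHT library.

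Among all tested genes 17.7% were called higher and 5.41% lower. The median log2 fold change of the 8 factors that bind the X and Y boxes was -0.08. Of these factors 1 was called higher and 0 lower, which is near the share of all tested genes. The one was Rfx5, the DNA-binding subunit of the RFX complex, at 30.4, 20.7 and 22.6 TPM in the LIGHT tumours against 15.8, 15.8 and 12.7 TPM in the control tumours (log2 fold change 0.69, SE 0.16, limma adjusted p = 0.0193). Its call was lost without control replicate 3 (limma adjusted p = 0.0649) and with the skeletal muscle covariate (0.0788). The other 2 RFX subunits did not pass: Rfxap was at 8.62 ± 0.6 TPM in LIGHT tumours and 10.4 ± 0.441 TPM in control tumours, and Rfxank at 6.73 ± 0.665 TPM in LIGHT tumours and 7.09 ± 0.365 TPM in control tumours (SD, n = 3 each). Rfxap passed as lower after trimmed-mean scaling (log2 fold change -0.34, limma adjusted p = 0.0145) and quantile normalization (-0.40, limma adjusted p = 0.00991). The NF-Y subunits Nfya, Nfyb and Nfyc and the X2 box factors Creb1 and Atf1 had log2 fold changes from -0.14 to 0.09. Atf1 passed as lower after trimmed-mean scaling alone (limma adjusted p = 0.0359).

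Of 9 genes of the interferon gamma route that induces Ciita, 8 were called higher and 0 lower, beside 17.7% and 5.41% of all tested genes. The median of their log2 fold changes was 0.64. Ifng, the cytokine itself, had 21.5, 14.4 and 11.5 TPM in the LIGHT tumours against 3.37, 8.47 and 4.46 TPM in the control tumours (log2 fold change 1.42, SE 0.31, limma adjusted p = 0.017). The receptor chains Ifngr1 and Ifngr2 rose by 0.64 and 0.46 on the log2 scale, Jak2, a kinase of the receptor, by 0.65, and Socs1, a feedback inhibitor, by 0.95. Irf1, Irf2 and Usf1, transcription factors that bind Ciita promoters, rose by 0.68, 0.43 and 0.44. The kinase Jak1 did not pass (36.1 ± 5.4 TPM in LIGHT tumours and 29.9 ± 2.34 TPM in control tumours, SD, n = 3 each, limma adjusted p = 0.177). The calls of Irf1, Irf2 and Usf1 were lost in 7, 10 and 8 of 17 other settings, and that of Jak2 in 4, which included leaving out control replicate 2, control replicate 3 or LIGHT replicate 3. Ifng lost its call without control replicate 3 (limma adjusted p = 0.0588) and with the red blood cell covariate (0.0853). Of the 9 genes 3 were called higher without control replicate 3, and 5 when control replicate 1, LIGHT replicate 1 or LIGHT replicate 2 was left out. The count was 1 with the skeletal muscle covariate and 2 with the red blood cell covariate.

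The order of the libraries was nearly the same for Ciita and Ifng. The second control library was the highest control and the first LIGHT library the highest LIGHT library for both genes. The ratio of Ciita to Ifng, formed after the values had been seen and not tested, was 0.864, 0.734 and 0.981 in the LIGHT tumours and 0.858, 0.666 and 0.774 in the control tumours, and the groups overlapped. Within LIGHT tumours the classical chains, like Ifng, fell from the first to the third library, while Ciita was lowest in the second. The second LIGHT library was close to the first for H2-Aa (1643 and 1699 TPM) and further from it for Ciita (10.6 and 18.6 TPM). In the control tumours H2-Ab1 and H2-Eb1 were highest in the second library and H2-Aa in the third.

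**Figure D5:**
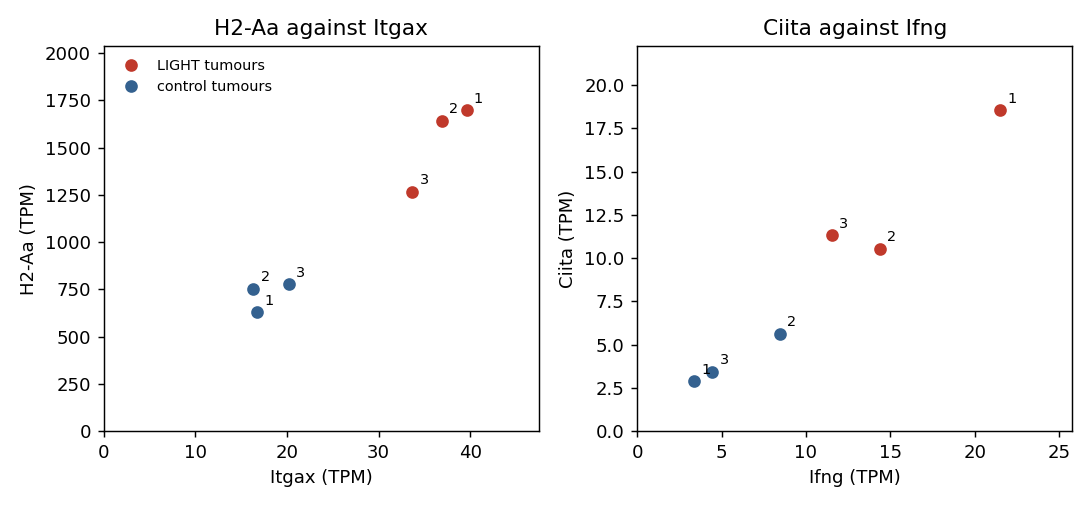
H2-Aa against Itgax (left) and Ciita against Ifng (right), each in TPM on linear axes, with 1 point per library and the replicate number beside it. In both plots the LIGHT libraries (red) lie above and to the right of the control libraries (blue), with Ciita at most 5.64 TPM in control and at least 10.6 TPM in LIGHT tumours.

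Of 8 genes that make or regulate peptides in endosomes 6 were called higher and 1 lower, beside 17.7% and 5.41% of all tested genes. Ctss, the cathepsin that trims the invariant chain in professional antigen-presenting cells, had 576, 610 and 418 TPM in the LIGHT tumours against 318, 267 and 329 TPM in the control tumours (log2 fold change 0.79, SE 0.15, limma adjusted p = 0.0114). Ctsl, the cathepsin that does this in thymic cortical epithelium, had 145, 159 and 186 TPM in the LIGHT tumours against 329, 281 and 308 TPM in the control tumours and fell by 0.91 on the log2 scale (SE 0.11, limma adjusted p = 0.0026). The groups did not overlap for either gene and lay in opposite order. Ctsl is also made by many other cells. Ifi30, a thiol reductase that unfolds antigens, was 1.98-fold higher (log2 fold change 0.98, SE 0.11, limma adjusted p = 0.00206). Cst3, an inhibitor of cathepsins, Ctsh, Ctsb and the endopeptidase Lgmn rose by 0.72, 0.61, 0.50 and 0.40 on the log2 scale. Ctsd, an aspartic protease, did not pass (921 ± 98.6 TPM in LIGHT tumours and 826 ± 28 TPM in control tumours, SD, n = 3 each). Lgmn lost its call in 6 of the 17 refits, 4 of which left out a library (replicate 2 or replicate 3 of either group). With the skeletal muscle covariate Ctss, Ctsh and Lgmn lost their calls (limma adjusted p = 0.123, 0.117 and 0.211), which left 3 of the 8 called higher.

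Among genes that set how long class II stays on the surface, Cd83, which protects class II from ubiquitination, was called higher at 3.24, 4.4 and 3.84 TPM in the LIGHT tumours against 1.36, 2.22 and 1.8 TPM in the control tumours (log2 fold change 0.79, SE 0.15, limma adjusted p = 0.0115). Its call was lost after quantile normalization and with either covariate (limma adjusted p from 0.0512 to 0.0847). Marchf1, the ubiquitin ligase that CD83 opposes, was at 3.02 ± 0.698 TPM in LIGHT tumours and 2.06 ± 0.251 TPM in control tumours (SD, n = 3 each, limma adjusted p = 0.119). Marchf8, a related ligase, and Sppl2a, the protease that clears the last invariant chain fragment, did not pass either, with log2 fold changes of 0.06 and 0.18. Both T cell receptors for class II rose. Cd4, the coreceptor, had 14.3, 8.81 and 8.61 TPM in the LIGHT tumours against 3.36, 3.9 and 5.12 TPM in the control tumours (log2 fold change 1.15, SE 0.21, limma adjusted p = 0.00921). Lag3, an inhibitory receptor that binds class II, had 21.6, 19.9 and 17.6 TPM in the LIGHT tumours against 5.06, 8.21 and 5.02 TPM in the control tumours (log2 fold change 1.57, SE 0.18, limma adjusted p = 0.00215).

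In bulk tumour, more cells that carry class II and more class II RNA per cell cannot be told apart. Some markers of such cells were called higher and others were not. Beside the counts of markers here and in the next paragraph, 17.7% of all tested genes were called higher and 5.41% lower. All 4 leukocyte markers were called higher, and their summed level was 289 to 329 TPM in the LIGHT tumours and 123 to 191 TPM in the control tumours. Of 11 macrophage and monocyte markers 6 were called higher, with sums of 1016 to 1388 TPM in the LIGHT tumours and 630.1 to 738 TPM in the control tumours. Most of these sums came from C1qa, C1qb and C1qc, with means of 407, 343 and 257 TPM in LIGHT tumours and 212, 182 and 136 TPM in control tumours. Adgre1, Cd68, Mertk, Fcgr1 and Mrc1 were not called. Adgre1 and Mrc1 overlapped between the groups, and the log2 fold change of Mrc1 was -0.13. Of 10 dendritic cell markers 4 passed the filter and 2 were called higher, Itgax and Ccr7. The 10 markers summed to 51.7 to 60.9 TPM in the LIGHT tumours and 23.7 to 28.5 TPM in the control tumours. Itgax alone gave most of these sums, with means of 36.7 TPM in LIGHT tumours and 17.8 TPM in control tumours. Flt3, Xcr1 and Clec9a, dendritic cell markers too low to be tested, were at or below 1.43 TPM in every library. Their LIGHT libraries all lay above the control libraries. The untested Zbtb46, Cd209a and Siglech overlapped between the groups, as did Batf3 and Clec10a, which were tested and not called. Flt3 averaged 1.11 ± 0.286 TPM in LIGHT tumours and 0.507 ± 0.0379 TPM in control tumours (SD, n = 3 each), and the folds between the group means were 2.19 for Flt3, 2.68 for Xcr1 and 3.22 for Clec9a. The part of these cells in the result was not tested.

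B cells carry both class II and DO, and their markers were near 0 in these tumours. None of 9 passed the filter, and their sum was 2.38 to 2.59 TPM in the LIGHT tumours and 0.8 to 1.95 TPM in the control tumours. Ms4a1 and Cr2 were listed at 0 in all 3 control libraries. Cd79b, a chain of the B cell receptor complex, reached 0.92 to 1.32 TPM in the LIGHT tumours and 0.16 to 0.22 TPM in the control tumours. The means of Cd79a and Fcrla lay the other way, at 0.233 and 0.443 TPM in the LIGHT tumours and 0.327 and 0.58 TPM in the control tumours. Both genes overlapped between the groups. The 6 markers of keratinocytes and tumour cells summed to 17807 to 25373 TPM in the LIGHT tumours and 25538 to 29815 TPM in the control tumours, without overlap, and the median of their log2 fold changes was -0.38. Krt14, the most abundant, averaged 8916 ± 1659 TPM in LIGHT tumours and 11421 ± 941 TPM in control tumours (SD, n = 3 each, limma adjusted p = 0.118). Of the 6 markers 1 was called lower, Krt6a (log2 fold change -0.62, limma adjusted p = 0.0406), and 0 higher. Krt14, Krt6a and Trp63 had all LIGHT libraries below the control libraries, and Dsg3 overlapped (log2 fold change -0.57, not called). Krt5 averaged 4906 ± 425 TPM in LIGHT tumours and 4875 ± 647 TPM in control tumours (SD, n = 3 each). Krt17 lay the other way, at 2623 ± 659 TPM in LIGHT tumours and 1904 ± 488 TPM in control tumours (SD, n = 3 each, log2 fold change 0.46, limma adjusted p = 0.202). The part of these cells in the class II result was not tested. All 5 T cell markers were called higher, Cd4 among them, and 0 of 3 endothelial markers. Of 2 Langerhans cell markers Epcam was tested and not called. Its mean was 200 TPM in LIGHT tumours and 164 TPM in control tumours, and which cells it came from was not tested. Cd207 was far lower, at 0.79 to 2.34 TPM in the LIGHT tumours and 0.12 to 0.84 TPM in the control tumours.

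Set against 3 leukocyte genes within the same library, H2-Aa kept overlapping ratios to 2 and Ciita to 2. H2-Aa over Itgax, an integrin of dendritic cells and some macrophages, was 42.9, 44.5 and 37.6 in the LIGHT tumours and 37.7, 46.2 and 38.6 in the control tumours, with a log2 difference of 0.03 (exact permutation p = 1). H2-Aa over Ptprc, the pan-leukocyte gene that encodes CD45, was 59.5 ± 6.41 in LIGHT tumours and 52.9 ± 6.23 in control tumours (SD, n = 3 each, exact permutation p = 0.4), and these groups overlapped as well. H2-Aa over Csf1r, the macrophage growth factor receptor gene, was 35.8, 31.5 and 30.9 in the LIGHT tumours and 22.6, 30.4 and 23.4 in the control tumours and did not overlap (log2 difference 0.37, exact permutation p = 0.1, adjusted p = 0.2). Ciita over Ptprc was 0.656, 0.421 and 0.472 in the LIGHT tumours and 0.252, 0.343 and 0.255 in the control tumours, again without overlap (log2 difference 0.85, exact permutation p = 0.1, adjusted p = 0.2). Ciita over Itgax averaged 0.363 ± 0.0943 in LIGHT tumours and 0.23 ± 0.1 in control tumours (SD, n = 3 each, log2 difference 0.71, exact permutation p = 0.3, adjusted p = 0.4). Ciita over Csf1r averaged 0.29 ± 0.0954 in LIGHT tumours and 0.145 ± 0.0713 in control tumours (SD, n = 3 each, log2 difference 1.06, exact permutation p = 0.2, adjusted p = 0.291). In both the groups overlapped because the second LIGHT library, at 0.286 and 0.202, lay below the second control library, at 0.345 and 0.227.

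Outside the group, the 5 genes whose centred log2(TPM + 1) profile over the 6 libraries lay closest to the mean profile of the 9 tested genes were Il2rg, Ctla4, Sh2d2a, Dhx58 and Cst7. Their root mean square distances were 0.0491 to 0.0898 on the log2 scale, and Pearson's r with the mean profile was 0.992 to 0.999. These r values describe 6 libraries in 2 separate groups and carry no test. Il2rg, the shared receptor chain of several interleukins, had 93 ± 9.87 TPM in LIGHT tumours and 35.2 ± 4.68 TPM in control tumours (SD, n = 3 each). The fold between its group means was 2.64, as for Cd74.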

How the data were processed

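Bulk RNA-seq of 3 LIGHT and 3 control tongue tumours was used. The deposited values are TPM per gene, 1 column per library per the file headers, and each column sums to 1000000 within rounding over 18437 genes. Depth is unknown. HISAT, Bowtie2 and the build GRCm38.p6 are named in the submitters' processing notes. How TPM were computed, and from which annotation, is not given in the sources used here.

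Genes were compared with limma 3.58.1 (R 4.3.3, mean-variance trend, 2-sided) on log2(TPM + 1), for the 13167 genes that reached 1 TPM in 3 or more libraries. A call is a Benjamini-Hochberg adjusted p under 0.05 over all tested genes. Ratios of TPM used exact permutation tests adjusted over 16 ratios. No set test was run. One gene of the interferon gamma list is not reported here and is not in its counts. The code was checked on simulated data with 200 changed genes. The named genes are the 10 genes, pathway lists, cell markers (highest mean level or at 0; others named were chosen after their values were seen), and the 5 nearest profiles. Members, lists and tests were chosen with earlier results of these data known. Same-numbered libraries had residual correlations of 0.37, 0.24 and 0.01 and were not treated as pairs. Alternatives were other pseudocounts (0.1 and 0.5), filters (none and 5 TPM), trimmed-mean factors (trimming 30% of the ratios and 5% of the levels at either end), quantile normalization, limma without trend or robust, a minimum absolute log2 fold change of 1, muscle and red blood cell covariates, a replicate block and each library left out. Promoter windows are from RefSeq. Transcripts were aligned with Biopython 1.88. Figures used matplotlib 3.10.9.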

Additional observations from a re-analysis of the deposited data

How the results depend on the processing

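The 9 tested class II genes kept their direction in all 153 combinations of gene and setting and their call in 151. The exceptions were H2-DMb1 with the skeletal muscle covariate (log2 fold change 1.13) and with the red blood cell covariate (0.92). H2-Ob was tested with no filter on low values alone (0.72). With the minimum log2 fold change of 1, 8 of the 9 remained past both limits. Genes called higher numbered 2325, and 1399 after quantile normalization, 755 with the muscle covariate, 976 with the red blood cell covariate, 376 with a minimum log2 fold change of 1, and 1145 to 1888 without 1 library. Genes called lower numbered 712, and 1731 after trimmed-mean factors, 1811 after quantile normalization, 112 and 207 with the muscle and red blood cell covariates, 82 with the minimum fold, and 314 to 773 without 1 library. These counts are over all genes tested. Among the fits that left out 1 library, both counts were lowest without LIGHT replicate 3.

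The count of X and Y box factors called higher was 0 with the muscle covariate and with the minimum fold, and 0 to 1 without 1 library. The interferon gamma count was 1 with the muscle covariate, 2 with the red blood cell covariate, 1 with the minimum fold and 3 to 6 without 1 library. The endosomal count was 3 with the muscle covariate and 0 with the minimum fold. The turnover count was 0 with the filter at 5 TPM, quantile normalization, either covariate and the minimum fold. With the replicate block 907 genes were called lower and all 9 class II genes stayed called, Ciita at a limma adjusted p of 0.0213.

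Signs turned for uncalled genes near 0: Rfxank without LIGHT replicate 3 (0; from -0.12 without 1 library), Nfya after trimmed-mean factors (-0.01), Nfyc with the muscle (0.03) and red blood cell (0.04) covariates and without LIGHT replicate 2 (from -0.09 to 0 without 1 library), Creb1 with the red blood cell covariate (0.02), and Marchf8 after trimmed-mean factors (-0.03), quantile normalization (-0.05) and without LIGHT replicate 1 (from -0.01 to 0.15 without 1 library). H2-Ob over H2-Oa turned with a pseudocount of 1 (-0.63), since H2-Ob lies near 1 TPM. H2-Aa over Itgax ranged from -0.02 to 0.12 without 1 library. Other causes were not tested.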
